A study of Homo sapiens with 10 samples.

Results

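The tissue inhibitors of metalloproteinases are 4 small secreted proteins, encoded by TIMP1, TIMP2, TIMP3 and TIMP4, and RECK encodes an unrelated inhibitor that is anchored in the cell membrane. Together these 5 genes were taken as the metalloproteinase inhibitors of ARPE-19 cells, by the symbol given to each row of the count table, and all 5 were found among its 22626 rows. They were selected on the measured difference between high glucose and control libraries, which was known when the genes were chosen, so that this difference is described for them without a test.

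A TIMP protein blocks a matrix metalloproteinase by inserting its end into the zinc-containing active site of the enzyme. The matrix metalloproteinases, abbreviated MMP, cut collagens and other matrix proteins, while the related ADAM and ADAMTS families shed membrane proteins and cut proteoglycans. TIMP3 differs from the other TIMPs in that it binds to the matrix, inhibits several ADAM and ADAMTS enzymes and accumulates in Bruch's membrane, the sheet under the retinal pigment epithelium (RPE). Mutations of TIMP3 cause Sorsby fundus dystrophy, an inherited macular disease with a thickened Bruch's membrane.

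ARPE-19, an established cell line, was derived from human RPE, and no primary cells were among these samples. The line was maintained in DMEM with fetal bovine serum. The libraries came from total RNA of cells kept for 48 h in 5.5 mM glucose with 32 mM mannitol (control, 5 libraries) or in 37.5 mM glucose (high glucose, 5 libraries). Mannitol is a sugar alcohol added to balance the osmotic strength, and since the groups differed in both sugars, an effect of glucose and one of mannitol cannot be told apart. The comparison addressed what high glucose changes in the transcriptome of RPE cells. Control libraries are numbered by their labels and high glucose libraries by their table columns, HG_1 to HG_5.

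Total counts were 33039260 to 45864176 in control libraries and 32448991 to 44400714 in high glucose libraries, so that 3 counts, the limit allowed by a count of 0, corresponded to 0.0654 to 0.0925 CPM (counts scaled to a library of 1000000), counting error only. In control replicate 2 and HG_1 the counts rose with the GC content of the transcript (0.17 and 0.188 log2 units per 10 percentage points), whereas the other 8 libraries lay between -0.0916 and -0.00519. Values without these 2 libraries are given for TIMP1, TIMP3 and RECK and beside counts of genes that they move by over 1.5 times. RPE identity was partial. Of 12 RPE markers TTR and RGR were at 0 in all libraries and RPE65 had at most 6 counts. OTX2 (mean 96.21 CPM in control and 88.83 CPM in high glucose), MITF (57.75 and 50.22 CPM) and RLBP1 (10.98 and 8.792 CPM) were expressed in both groups. The 12 markers summed to 167.1 to 718.5 CPM in control and 151.3 to 163.2 CPM in high glucose libraries. The spread of the control sum came mostly from BEST1 (0.577 to 551.5 CPM in control libraries), which did not pass (log2 fold change -4.97, adjusted p = 0.067 by edgeR's quasi-likelihood test). Of the 7 RPE markers tested, the melanosome protein PMEL fell without overlap (-0.72, adjusted p = 0.00854 by edgeR) and the other 6 did not pass. Among these 6, OTX2 was also lower without overlap (-0.12, adjusted p = 0.0814 by edgeR). The sum of 6 epithelial and mesenchymal markers, 8652 to 9707 CPM in control and 8065 to 9410 CPM in high glucose libraries, was mostly vimentin (VIM). By edgeR's quasi-likelihood test, 3 of the 5 tested fell without overlap, the keratins KRT8 (log2 fold change -0.62, adjusted p = 0.00159) and KRT18 (-0.68, adjusted p = 0.00142) and the cadherin CDH2 (-0.30, adjusted p = 0.0314), where 7.8% of all rows fell and 13.6% did not overlap. Of 7 markers of other cell types, CDH5 was at 0 and PTPRC had at most 4 counts, and their sum (54.79 to 81.66 against 102.1 to 143.8 CPM) was nearly all CD68, a lysosomal protein known from macrophages. CD68 rose without overlap (log2 fold change 0.70, adjusted p = 0.00311 by edgeR), 1 of 2 of these markers tested, where 7.6% of all rows rose. The part of these marker differences in the results was not tested. In such bulk RNA, fewer expressing cells and less RNA per cell cannot be told apart.

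TIMP3 lies on chromosome 22 (GRCh38, 32801701 to 32863043, plus strand) within the span of SYN3 on the opposite strand, with which it shares no exon base, and it has 1 annotated transcript of 4603 bases. Its promoter is shown because TIMP3 had the largest difference of the 5 genes, and because its window, the 250 bases before the RefSeq start (GRCh38.p14, plus strand, chr22:32801455-32801704), lies almost wholly outside annotated transcripts of the gene. Capitals mark GC boxes, GGGCGG on either strand, the letters bound by the SP1 family of transcription factors.
TIMP3 promoter: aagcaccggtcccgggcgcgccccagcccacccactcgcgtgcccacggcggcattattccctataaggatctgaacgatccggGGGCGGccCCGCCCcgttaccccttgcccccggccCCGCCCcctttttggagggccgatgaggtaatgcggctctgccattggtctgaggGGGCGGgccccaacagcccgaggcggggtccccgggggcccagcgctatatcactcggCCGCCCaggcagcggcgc
The window held 5 GC boxes and 72.4% G or C. Among 35114 RefSeq promoters cut to the same length, 42.6% held a GC box, 4.15% held 5 or more, and the median GC content was 58.0%. RefSeq promoters were matched for 4 of the 5 genes, without TIMP2. GC boxes numbered 2 for TIMP1, 1 for TIMP4 and 3 for RECK, with 64.8%, 62.8% and 63.6% G or C, but these windows lie wholly (TIMP4 and RECK) or in part (TIMP1) inside the annotated gene span and may hold transcribed sequence. Neither the AP-1 letters TGANTCA, found in 6.6% of promoters, nor the E-box letters CACGTG, found in 6.3%, occurred in these 4 windows on either strand. The TATA box letters TATAAA, found in 10.7%, were absent from them too. The letters CCAAT, found in 32.0%, occurred in the windows of TIMP3 (88 bases before the start) and TIMP4 (50 bases). Such matches describe the letters only.

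In control medium TIMP3 was measured at 740.4, 568.8, 565.2, 566.1 and 605.9 CPM in replicates 1 to 5. In high glucose it was at 264.2, 253.3, 250.2, 236.1 and 278.4 CPM in HG_1 to HG_5. The groups were separated by a gap of 286.8 CPM between the nearest libraries, with all high glucose values on the lower side, and control replicate 1 stood above the other controls. The means were 609.3 ± 75.27 and 256.4 ± 15.84 CPM (SD, n = 5 each), on 18705 to 26978 and 7767 to 11225 counts per library. By edgeR the log2 fold change was -1.25 (SE 0.081), that is a 2.38-fold lower level in high glucose, and it was -1.17 without control replicate 1. Libraries with a GC trend did not stand apart for TIMP3, and the value without both of them was -1.28. Among the 300 rows with a mean CPM at or above that of TIMP3, of which 103 passed the test described below, THBS1 (log2 fold change -1.61), which encodes the matrix protein thrombospondin 1, was the one with a larger absolute difference. The next were SCD (1.23), a fatty acid desaturase, and COL4A1 (-1.01), a basement membrane collagen. Over all rows tested, at any level, TIMP3 was at rank 247 by absolute log2 fold change. Both ranks are descriptions, because the same difference chose the gene.

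**Figure D1:**
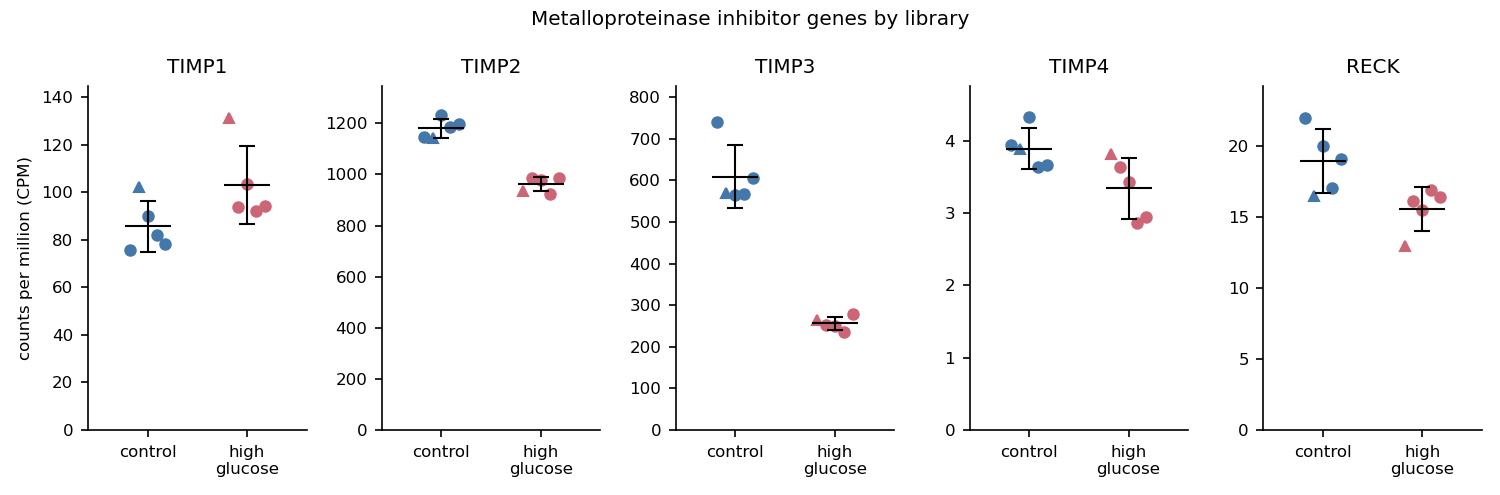
CPM of the 5 inhibitor genes in each library, with a separate vertical scale from 0 for each gene. Points are libraries, triangles are control replicate 2 and HG_1, and bars are mean ± SD (n = 5); the groups are separate for TIMP2 (gap 158 CPM) and TIMP3 (gap 286.8 CPM) and overlap for TIMP1, TIMP4 and RECK.

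TIMP2, which blocks MMP2 and also helps MMP14 to activate it at the cell surface, had the highest level of the 5. Its gene is on chromosome 17 (78852977 to 78925387, minus strand), with 5 annotated transcripts. Control replicates 1 to 5 held 1146, 1144, 1231, 1186 and 1199 CPM, and HG_1 to HG_5 held 936.8, 984.7, 978.7, 925.3 and 985.9 CPM. The groups did not overlap, with 158 CPM between the nearest libraries, and the spread within a group was small, with a coefficient of variation of 3.13% in control and 3.01% in high glucose. Means of 1181 ± 36.97 and 962.3 ± 28.94 CPM (SD, n = 5 each) gave a log2 fold change of -0.30 (SE 0.039), a 1.23-fold lower level. Of 3553 windows of 100 bases in the longest coding transcript, 2.84% also occur in CEP295NL, which overlaps TIMP2 on the same strand and had 2 to 28 counts per library, far below the TIMP2 counts of 30440 to 53406. The antisense gene AC022966.1 on the opposite strand shares 367 of the 5633 exon bases of TIMP2, and its own counts were not analysed here.

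TIMP1, a broad inhibitor of secreted MMPs that also binds the tetraspanin CD63, lies on chromosome X (47582313 to 47586789, plus strand) within SYN1 on the opposite strand. It was at 75.86, 102.2, 89.86, 82.25 and 78.36 CPM in control replicates 1 to 5 and at 131.2, 93.92, 103.3, 91.98 and 94.12 CPM in HG_1 to HG_5. The groups overlapped through control replicate 2, and within each group the library with the GC trend was the highest. The means were 85.71 ± 10.63 and 102.9 ± 16.41 CPM (SD, n = 5 each), and the log2 fold change was 0.26 (SE 0.113), with 0.16 without HG_1. With both GC-trend libraries left out, the 4 control libraries at 75.86 to 89.86 CPM lay below the 4 high glucose libraries at 91.98 to 103.3 CPM, and the log2 fold change was 0.23. TIMP1 was thus the one gene of the 5 with a higher mean in high glucose.

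RECK restrains MMP2, MMP9 and MMP14 at the membrane, and together with the receptor ADGRA2 it also passes WNT7 signals to frizzled receptors. Its gene is on chromosome 9 (36036433 to 36124451, plus strand). In control replicates 1 to 5 RECK was at 22.01, 16.51, 20.03, 17.04 and 19.14 CPM, and in HG_1 to HG_5 at 12.99, 16.14, 15.51, 16.93 and 16.45 CPM. Here the order of the GC-trend libraries was opposite to that of TIMP1, each being the lowest of its group, and the groups overlapped through control replicate 2. The means of 18.94 ± 2.248 and 15.61 ± 1.551 CPM (SD, n = 5 each) gave a log2 fold change of -0.28 (SE 0.099). Left without both libraries, RECK ranged from 17.04 to 22.01 CPM in control and from 15.51 to 16.93 CPM in high glucose, with a log2 fold change of -0.27. The transcript used for GC content has 44.2% G or C for RECK and 57.9% for TIMP1.

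TIMP4, the TIMP with the most restricted tissue distribution, was at percentile 20.4 of the tested rows by mean CPM (not per length), with 94 to 180 counts per library. Its gene is on chromosome 3 (12153051 to 12159351, minus strand) within SYN2 on the opposite strand, and 170 of its 1650 exon bases are shared with SYN2. Control replicates 1 to 5 held 3.942, 3.88, 4.328, 3.632 and 3.661 CPM, and HG_1 to HG_5 held 3.819, 3.636, 3.432, 2.857 and 2.95 CPM. The groups overlapped, and the log2 fold change of -0.22 (SE 0.123) had an interval of 2 standard errors from -0.47 to 0.03. A difference of TIMP4 was not resolved. Intervals of the same kind were 0.03 to 0.49 for TIMP1, -0.38 to -0.22 for TIMP2, -1.41 to -1.09 for TIMP3 and -0.48 to -0.08 for RECK. None of them is read as a test, because the same comparison chose the genes. The partner genes on the opposite strand were nearly silent, with 5 to 28 counts per library for SYN1, 0 to 10 for SYN2 and 0 to 14 for SYN3, and whether reads were counted by strand is not given in the sources used here.

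Of the 14936 rows kept by edgeR's filter on low counts, 15.4% passed its quasi-likelihood test at an adjusted p under 0.05, with 7.6% higher and 7.8% lower in high glucose. In 13.6% the CPM of the groups did not overlap. The share that passed was 27.1% (4035 of 14899 rows) without control replicate 2 and HG_1, and 29.3% (3968 of 13538 rows) with a correction for GC content and length. The 5 inhibitor genes were all kept, and 2 of them, TIMP2 and TIMP3, were past this threshold, both lower and both without overlap, which is a description because the same comparison chose them. Without control replicate 2 and HG_1, and likewise with the correction, 4 of the 5 were past it, TIMP1 on the higher side and RECK on the lower side being added, and with DESeq2 3 were, with RECK, where 20.9% of all rows passed. No count of the 5 is read as support. The median log2 fold change was -0.28 over the 5 genes and 0.001 over all rows tested.

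Levels of different genes were compared per length, with the deposited FPKM values. In control libraries TIMP2 was first at 299.1 FPKM (range 282.7 to 313.4), followed by TIMP3 at 122.3 ± 15.42 FPKM and TIMP1 at 101 ± 11.27 FPKM (SD, n = 5). The ranges of TIMP3 (111.4 to 148.9 FPKM) and TIMP1 (89.68 to 117.8 FPKM) overlapped, so this pair was not separated. The overlap came through control replicate 2, a GC-trend library, with TIMP3 at 111.4 and TIMP1 at 117.8 FPKM. In the other controls TIMP3 (114.1 to 148.9 FPKM) lay above TIMP1 (89.68 to 106.4 FPKM). RECK at 3.96 FPKM and TIMP4 at 3.00 FPKM were far lower. In high glucose TIMP2 was again first at 245.6 ± 10.89 FPKM (SD, n = 5), but TIMP1 now came next at 122.3 ± 16.79 FPKM (110.6 to 150.8) and TIMP3 after it at 51.86 ± 3 FPKM (48.29 to 56.59), with no overlap between them. RECK at 3.29 FPKM and TIMP4 at 2.59 FPKM overlapped in range. The same ranks were obtained from the counts divided by the length of the longest coding transcript in the annotation.

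The FPKM of TIMP3 divided by that of TIMP1 was 1.66, 0.946, 1.07, 1.17 and 1.31 in control replicates 1 to 5, and 0.341, 0.459, 0.412, 0.437 and 0.502 in HG_1 to HG_5. Only control replicate 2 among the controls was below 1, and all high glucose libraries were. Control replicate 2 and HG_1, the libraries with a GC trend, held the lowest ratio of their groups. Summed over the 4 TIMP genes, FPKM was 525.5 ± 9.411 in control and 422.3 ± 13.44 in high glucose (SD, n = 5 each), with ranges of 514.8 to 537.2 and 399.8 to 434.9 that did not overlap. TIMP3 made up 23.3% ± 2.75 of this sum in control and 12.3% ± 0.618 in high glucose, while TIMP1 made up 19.2% ± 2.32 and 28.9% ± 3.35 (SD, n = 5 each). The share of TIMP2 was 56.9% ± 1.99 and 58.2% ± 3.05 (SD, n = 5 each), with overlapping ranges. For TIMP3 (21.24% to 27.98% against 11.82% to 13.34%) and TIMP1 (16.86% to 22.88% against 26.56% to 34.68%) the ranges of the share did not overlap. Shares of a sum are bound together, so the share of TIMP1 rises where TIMP2 and TIMP3 fall. The FPKM of TIMP1 itself overlapped between the groups (89.68 to 117.8 in control against 110.6 to 150.8 in high glucose).

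**Figure D2:**
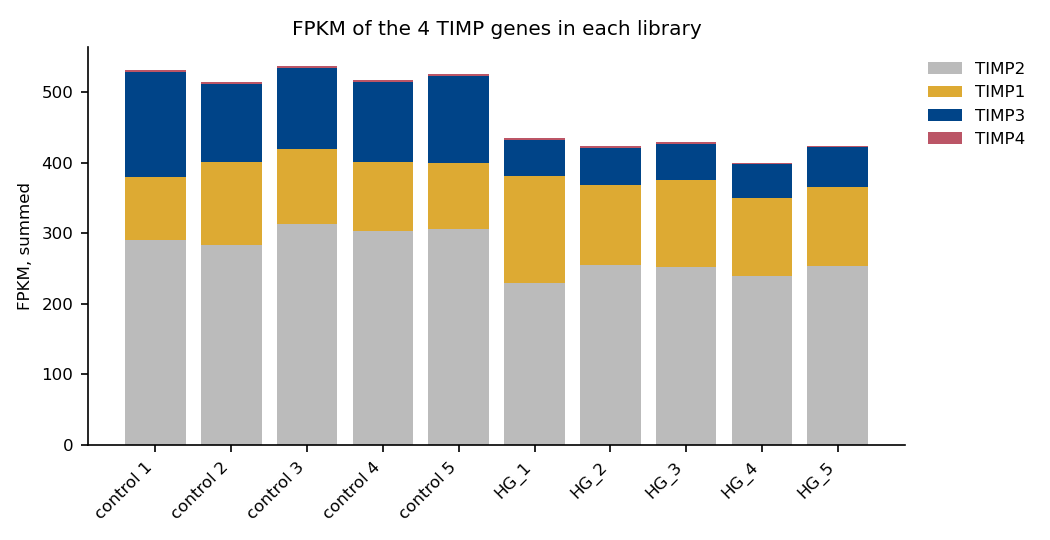
FPKM of the 4 TIMP genes, stacked for each of the 10 libraries (vertical axis, summed FPKM). The stacks reach 514.8 to 537.2 in control and 399.8 to 434.9 in high glucose libraries, and the TIMP3 segment shrinks from 111.4 to 148.9 FPKM in control to 48.29 to 56.59 FPKM in high glucose, while TIMP4 is barely visible.

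Within groups the 5 genes did not move as a unit. After the group means were removed, Pearson's r of log2 CPM over the 10 libraries was -0.82 between TIMP1 and RECK, 0.58 between TIMP1 and TIMP4, 0.41 between TIMP3 and RECK, and -0.15 between TIMP2 and TIMP3. Without control replicate 2 and HG_1 the same pairs gave -0.39, 0.52, 0.63 and -0.27. The strongest of these relations was thus weaker without the libraries with a GC trend, and 4 of the 10 pairs changed sign, TIMP1 with TIMP2 (-0.24 to 0.67), TIMP2 with RECK (0.20 to -0.39), TIMP4 with RECK (-0.29 to 0.11) and TIMP3 with TIMP4 (0.06 to -0.01). The points share their libraries, depth and scaling, and the values are descriptive.

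The genes most like TIMP3 were sought among 12364 genes with a mean of at least 1 CPM, as a description over the 10 libraries. Over all libraries Pearson's r of log2 CPM was highest for PRSS23 (0.996), a secreted serine protease, LBH (0.996), a transcription cofactor, DNAJB11 (0.995), a chaperone of the endoplasmic reticulum, GPRC5A (0.993), an orphan receptor, and SPECC1 (0.993). Both group differences and spread within groups enter this r, and the log2 fold changes of these 5 genes were -0.45, -1.03, -0.54, -0.75 and -0.30, all smaller in size than that of TIMP3. With group means removed the highest were RHOJ (0.962) and RHOB (0.921), small GTPases, TPM1 (0.928), an actin-binding tropomyosin, GPRC5A (0.905) and SALL2 (0.900). All of these were higher in control replicate 1 than in the other controls, as TIMP3 was: RHOJ was at 72.8 CPM there against 55.78 to 59.71 CPM, and TPM1 at 2319 against 1955 to 2130 CPM. Without that library r with group means removed was 0.853 for RHOJ, 0.86 for TPM1, 0.936 for RHOB, 0.721 for GPRC5A and 0.763 for SALL2. By Spearman correlation 0 of the first 5 genes and 2 of the second 5 stayed in the list, and without both GC-trend libraries 0 of either did. Both lists thus depended on the measure and on the libraries used.

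**Figure D3:**
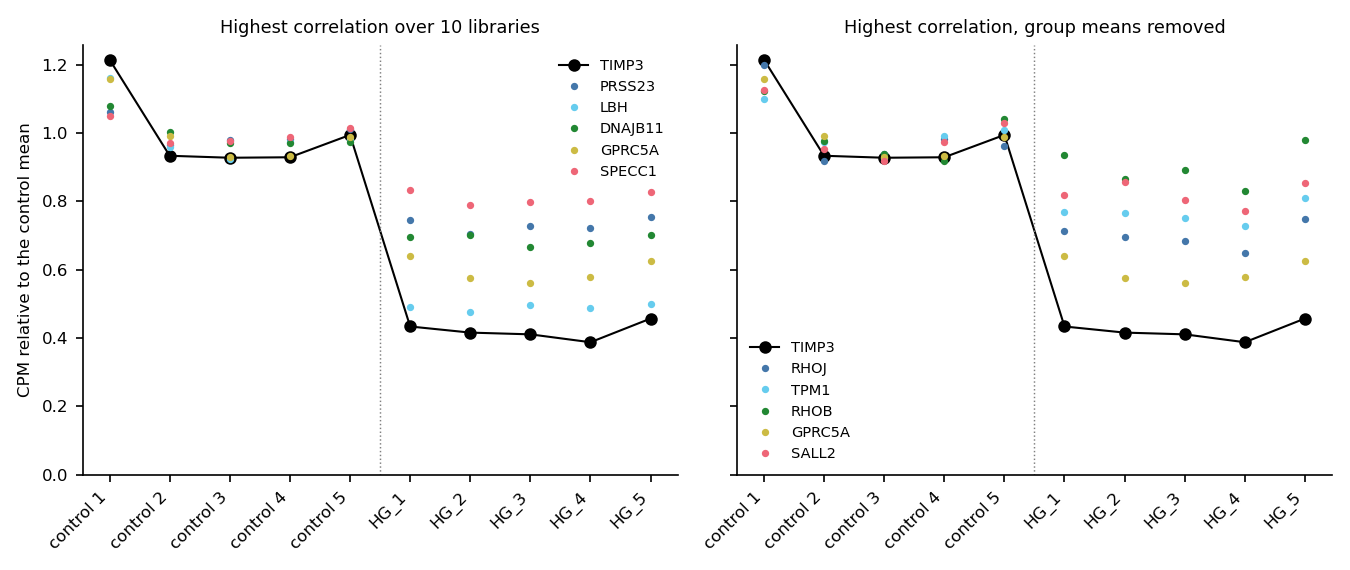
CPM divided by the control mean of the same gene in each of the 10 libraries, for TIMP3 (black line) and the 5 genes with the highest correlation over all libraries (left) or with group means removed (right). TIMP3 and all genes shown are highest in control replicate 1 in both panels, and the genes stay between TIMP3 and the control level in high glucose.

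Other proteins that can inhibit metalloproteinases were in a list of 14 genes, of which 7 were measured well enough to be tested, 1 rose and none fell, beside 7.6% of all rows that rose and 7.8% that fell. STC2, a secreted glycoprotein that blocks the metalloproteinase PAPPA, rose from 260 ± 17.28 to 307.2 ± 12.03 CPM (SD, n = 5 each, log2 fold change 0.24, adjusted p = 0.0112 by edgeR's quasi-likelihood test). The other 6 did not pass, among them the proteoglycan SPOCK1 (log2 fold change -0.27, adjusted p = 0.0595) and the inhibitor TFPI2 (-0.18, adjusted p = 0.129), both by edgeR. The list median was 0.07, against 0.001 for all rows tested. Without HG_1 the count was 3, and without both GC-trend libraries 4, while the share of all rows that passed went from 15.4% to 19.9% and 27.1%. A2M, a trap for proteinases of many kinds, had at most 5 counts.

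Of 23 matrix metalloproteinases, the main targets of the TIMPs, 13 were tested, 2 rose and 3 fell (7.6% and 7.8% of all rows). MMP1, a collagenase, rose from 0.497 ± 0.138 to 2.33 ± 0.499 CPM (SD, n = 5 each), a log2 fold change of 2.22 (SE 0.246, adjusted p = 0.000265 by edgeR). MMP3, the stromelysin that can activate MMP1, rose from 1.32 ± 0.282 to 4.52 ± 0.688 CPM (SD, n = 5 each), a log2 fold change of 1.77 (SE 0.184, adjusted p = 0.000182 by edgeR). Both started from low levels, at 10 to 106 and 41 to 242 counts per library. MMP2, the gelatinase that TIMP2 and TIMP3 inhibit, fell from 162.7 to 127 CPM (log2 fold change -0.36, adjusted p = 0.0015 by edgeR), and the membrane enzymes MMP15 (-0.35, adjusted p = 0.0318) and MMP24 (-0.28, adjusted p = 0.0382) fell as well. MMP24 is named after its values were seen. MMP14, the membrane enzyme that TIMP2 joins with MMP2, was the most abundant at 187.9 FPKM in control and 220.7 FPKM in high glucose, and did not pass (log2 fold change 0.22, adjusted p = 0.0672 by edgeR), nor did MMP16 (-0.05, adjusted p = 0.824). MMP9, MMP12, MMP13, MMP20, MMP26 and MMP27 were at 0 counts in all libraries. The list median was -0.05, and without control replicate 1, control replicate 5, HG_2, HG_3 or HG_5 the count of 5 genes became 3, while the share of all rows went from 15.4% to between 10.9% and 11.9%.

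Membrane ADAM proteinases shed receptors and growth factors, and TIMP3 is the TIMP known to block several of them. Of 12 genes 9 were tested, none rose and 2 fell (7.6% and 7.8% of all rows), with a list median of -0.23. ADAM19 fell from 43.99 to 29.14 CPM (log2 fold change -0.59, adjusted p = 0.000609 by edgeR) and ADAM12 from 141.6 to 103.9 CPM (-0.45, adjusted p = 0.00356 by edgeR). ADAM9 (-0.10, adjusted p = 0.758) and ADAM15 (0.01, adjusted p = 0.970), the most abundant, did not pass. ADAM17, the sheddase of tumour necrosis factor and the best known ADAM target of TIMP3, did not pass (-0.04, adjusted p = 0.885 by edgeR), nor did ADAM10 (-0.39, adjusted p = 0.0631), both named after their values were seen.

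The ADAMTS proteinases cut aggrecan, versican and other matrix proteins, and TIMP3 inhibits ADAMTS5 and related members. Of 19 genes 11 were tested, none rose and 6 fell (7.6% and 7.8% of all rows), all 6 without overlap of the groups (13.6% of all rows). ADAMTS15 fell from 36.85 ± 7.188 to 15 ± 1.51 CPM (SD, n = 5 each), a log2 fold change of -1.30 (SE 0.126, adjusted p = 0.000139 by edgeR), close in size to that of TIMP3. ADAMTS12 fell from 162.5 to 86.33 CPM (-0.91, adjusted p = 0.000952 by edgeR), and the aggrecanase ADAMTS5 (-0.85) and ADAMTS6 (-0.68) fell too, each with an adjusted p of 0.00973. ADAMTS9 (-0.10, adjusted p = 0.651) and ADAMTS14 (0.20, adjusted p = 0.431) did not pass. The median of the 11 was -0.44. In each of the 10 fits without 1 library 6 genes passed, beside 10.9% to 19.9% of all rows. The fewest, 4, passed by limma on rows with a mean FPKM of at least 1 (15.7% of all rows). With a replicate block by column number 4 passed as well (7.17% of all rows).

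**Figure D4:**
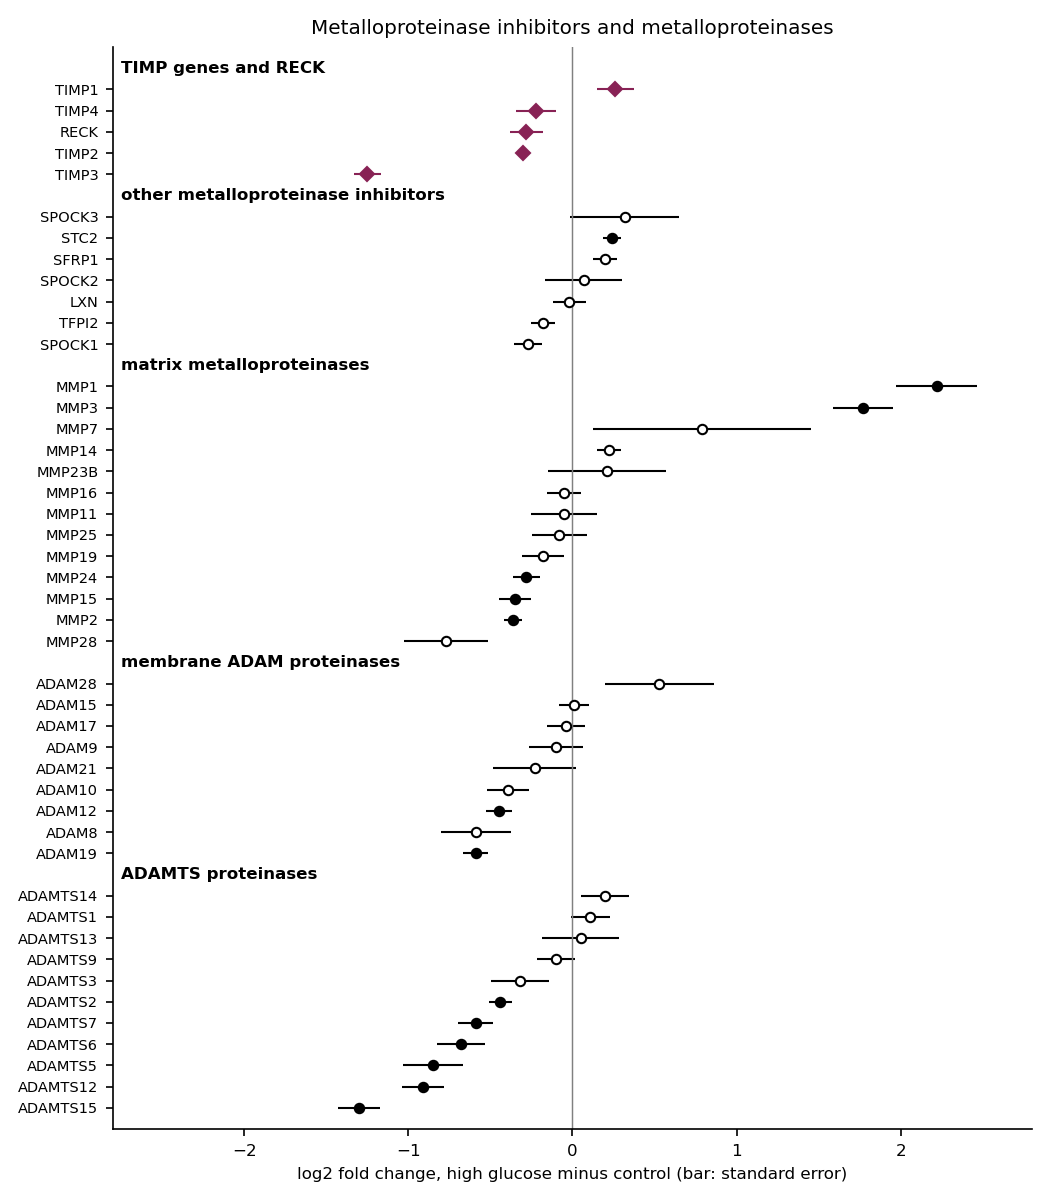
Log2 fold change of high glucose against control (horizontal axis, bars are standard errors) for the 5 inhibitor genes (diamonds, shown without a test) and for the tested genes of 4 lists of inhibitors and proteinases (filled circles, adjusted p under 0.05). TIMP3 at -1.25 and ADAMTS15 at -1.30 lie farthest to the left, and MMP1 at 2.22 and MMP3 at 1.77 farthest to the right.

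Proteins that bind or clear TIMPs, with BSG added, were represented by 8 genes, 7 of them tested, of which 1 rose and 3 fell (7.6% and 7.8% of all rows). EFEMP1, the matrix protein fibulin-3 that binds TIMP3, fell from 341.4 ± 32.63 to 253.9 ± 11.27 CPM (SD, n = 5 each, log2 fold change -0.43, adjusted p = 0.00143 by edgeR). LRP1, the endocytic receptor that clears TIMP3 and its complexes, fell from 1644 to 1392 CPM (-0.24, adjusted p = 0.00246 by edgeR). KDR, the VEGF receptor that TIMP3 can block, fell at a low level from 3.58 to 2.32 CPM (-0.63, adjusted p = 0.0452 by edgeR). ITGA3, the integrin chain through which TIMP2 acts on cells, rose (0.19, adjusted p = 0.0247 by edgeR), and its partner ITGB1 (-0.02, adjusted p = 0.934) and BSG, an inducer of MMPs (0.00, adjusted p = 0.984), did not pass. The list median was -0.02, and without control replicate 1, 4 or 5, HG_3 or HG_4 the count of 4 became 2, while the share of all rows went from 15.4% to between 10.9% and 11.9%.

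Of 8 genes of the receptor complex in which RECK carries WNT7, 6 were tested, 1 rose and 2 fell (7.6% and 7.8% of all rows). LRP5, a co-receptor, fell (log2 fold change -0.35, adjusted p = 0.00133 by edgeR), the receptor FZD5 fell (-0.40, adjusted p = 0.0279) and the receptor FZD4 rose from 61.76 to 79.74 CPM (0.37, adjusted p = 0.00927). LRP6 (-0.05, adjusted p = 0.869) and ADGRA2 (-0.21, adjusted p = 0.237) did not pass, and the ligands WNT7A and WNT7B were at 0 counts in all libraries. The list median was -0.13.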

How the data were processed

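RNA of 10 ARPE-19 libraries, 5 control and 5 high glucose, was analysed from 2 tables. The authors deposited read counts, whole numbers per gene without normalization, and FPKM values, in which the authors scaled each gene by its length and each library by its depth. The submitters' processing notes name fastp 0.20.1, HISAT2 2.2.1 and GRCh38, while the counting program and its strand setting are not given in the sources used here. Groups came from the labels, and each high glucose column could be tied to its group only. The study describes its data in general as coming from repeated independent experiments, but does not state that these libraries came from separate cultures. Its p-values here thus measure only the spread between these libraries.

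Counts were filtered and TMM-normalized in R 4.3.3 with edgeR 4.0.16 and compared by its quasi-likelihood test, with Benjamini-Hochberg adjustment over 14936 rows and a threshold of 0.05. CPM in the text are scaled to library totals after TMM, except the limits for a count of 0, which use the plain totals, and log2 CPM for correlations used a prior count of 2. Steps were tested on simulated counts. The 5 genes, the gene lists and the alternatives were chosen with earlier results of these data known. From each list the text names all genes that passed if at most 4 did, otherwise the 4 with the largest absolute log2 fold change, and up to 2 others with the highest mean CPM, with exceptions marked. In 2 lists, 1 gene each enters the counts but is not reported here by name. Gene positions, overlaps and lengths came from GENCODE release 29 on GRCh38, and promoters from RefSeq (GRCh38.p14).

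The alternatives were library size alone or RLE size factors in place of TMM, DESeq2 1.42.0, a minimum of 10 counts per library or no filter, limma 3.58.1 on log2(FPKM + 1), also for rows with a mean FPKM of at least 1 alone, and with a pseudocount of 0.1, counts without loci named MSTRG, a correction for GC content and length, leaving out both GC-trend libraries, and each library left out in turn. The likeness to TIMP3 without control replicate 1 and a block by column number were added after seeing the data.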

Additional observations from a re-analysis of the deposited data

Results flagged for a closer look

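In high glucose, TIMP1 of HG_1 at 131.2 CPM stood apart from the other 4 libraries (91.98 to 103.3 CPM), its gap to the nearest being 0.712 of the range of the group. In control, TIMP3 of replicate 1 at 740.4 CPM stood apart from the other 4 libraries (565.2 to 605.9 CPM), with a gap of 0.768 of the range. The limit for 5 samples is 0.71, and 2 of the 10 sets of 5 values passed it, where chance gives 0.5. HG_1 is one of the libraries with a GC trend, and control replicate 1 is not.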

How the results depend on the processing

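The log2 fold changes of the 5 inhibitor genes kept their direction in all 22 alternatives and moved by less than 1 SD, from 0.16 to 0.34 for TIMP1, -0.31 to -0.27 for TIMP2, -1.28 to -1.17 for TIMP3, -0.27 to -0.16 for TIMP4 and -0.32 to -0.21 for RECK. Counts of genes passed stayed within 1.5 times for the ADAM (2 to 3) and ADAMTS (4 to 6) lists. For the other metalloproteinase inhibitors 1 gene passed, against 3 with DESeq2, 2 with at least 10 counts, 2 without MSTRG loci, 3 with the GC and length correction and 4 without both GC-trend libraries. For the cysteine proteinase inhibitors 0 passed, against 2 with DESeq2, 1 with library size alone, 1 with at least 10 counts, 1 by limma on a mean FPKM of at least 1, 2 with the GC and length correction and 2 without both GC-trend libraries. Of all rows, 15.4% passed in the main fit and with library size alone. The share was 20.9% with DESeq2, 17.7% with at least 10 counts and 17.3% without MSTRG loci. It was 15.7% by limma on a mean FPKM of at least 1, 29.3% with the GC and length correction and 27.1% without both GC-trend libraries. For the serine proteinase inhibitors 5 became 8 with that correction and 9 without those libraries, and over all rows 2303 became 3968 and 4035. Leaving out 1 library gave 1 to 3 other metalloproteinase inhibitors, 3 to 5 MMPs, 2 to 4 binding partners, 4 to 8 serine and 0 to 1 cysteine proteinase inhibitors, and 1648 to 2993 rows in all. Some alternatives tested fewer libraries or rows, and the cause of the changed counts was not tested. The labels give the groups no shared replicate numbers. With a replicate block by the column numbers of the table, chosen after seeing the data, 1071 rows passed in all, with 0 other metalloproteinase inhibitors, 2 binding partners and 1 of the RECK receptor complex (3 without the block). Deviations from the group means correlated at -0.36 to 0.20 between libraries of the same number, and of the controls only replicate 3 correlated best with its own number. Control replicate 2 correlated best with HG_1, the other library with a GC trend. Whether cultures were paired cannot be told from this, because each high glucose column could be tied to its group only. The median of all rows moved by at most 0.014 (log2) in any alternative. The correction covered 13538 rows (90.6% of those tested). Of the 5 genes TIMP4 had the fewest counts, 94 to 180 per library.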

Other observations

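Inhibitors of other proteinase classes were listed for comparison. Of 22 serine proteinase inhibitors 15 were tested, 3 rose and 2 fell (7.6% and 7.8% of all rows), with a median log2 fold change of -0.12. SERPINB2, an inhibitor of urokinase, rose at a low level from 2.49 to 4.80 CPM (log2 fold change 0.95, adjusted p = 0.00308 by edgeR), and SERPING1, the inhibitor of complement C1, fell from 1.29 to 0.662 CPM (-0.95, adjusted p = 0.0316). TFPI, the inhibitor of tissue factor, rose from 68.8 to 94.49 CPM (0.46, adjusted p = 0.000146 by edgeR), and SERPINB8 rose (0.34, adjusted p = 0.0023), the last named after its values were seen. SPINT2 (-0.20, adjusted p = 0.0798) and SERPINB6 (0.23, adjusted p = 0.0675) did not pass. Without HG_1 the count of 5 became 8, and without both GC-trend libraries 9, while the share of all rows that passed went from 15.4% to 19.9% and 27.1%.

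Of 9 cysteine proteinase inhibitors 4 were tested and 0 passed by edgeR, beside 15.4% of all rows that passed. An unadjusted p under 0.05 by edgeR was found for 2, and the share of all rows at that threshold is not given here. With DESeq2 2 passed, as did 2 without both GC-trend libraries, beside 20.9% and 27.1% of all rows. CAST, the inhibitor of calpains, was at 197.9 CPM in control and 222.7 CPM in high glucose (0.17, adjusted p = 0.0573 by edgeR), and CSTB, a cystatin that blocks lysosomal cathepsins, at 144 and 183.3 CPM (0.35, adjusted p = 0.0625 by edgeR).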
